A study of Caenorhabditis elegans with 2 samples.

Results

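The study asked which small RNAs the nuclear Argonaute NRDE-3 carries in the nematode Caenorhabditis elegans, and the genes described here are those its tables class as transfer RNA (tRNA). The members were chosen by their read counts: they are the 333 tRNA genes with 10 or more reads, sense plus antisense and summed over both libraries, of 615 genes in that class and 45510 genes in the tables. Both libraries hold RNA co-purified with FLAG-tagged NRDE-3 from embryos at 20 °C, sized on a gel to 20 to 30 nt, after phosphatase and kinase treatment that lets RNAs with any 5′ phosphate be ligated. All animals carried the transgene 3xflag::gfp::nrde-3. For the wild-type library the background was N2 and the food OP50. For the RNAi library the animals also had the mutations eri-1(mg366) and dpy-13(e458) and ate bacteria that deliver dpy-13 double-stranded RNA; the study used it for control. There was 1 library per group, so genotype, food and library preparation cannot be told apart, the conditions could not be tested and p-values are not given. The targeted gene dpy-13, a cuticle collagen, had 1 wild-type and 115 RNAi antisense reads, and 8 and 47 sense reads, which fits the labels. An untagged or input library was not analysed here. In RNA from whole embryos, fewer cells that hold a fragment and less of it per cell cannot be told apart.

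Transfer RNAs are short adaptor molecules that carry amino acids to the ribosome. They are transcribed by RNA polymerase III from many gene copies, of which a large share lies on the X chromosome in this worm, and are charged by aminoacyl-tRNA synthetases. Pieces of a tRNA are on its own strand and are counted as sense, whereas the 22G-RNAs that NRDE-3 is known to bind are made by RNA-dependent RNA polymerases on a transcript as template and are counted as antisense. The tRNAs for leucine and serine carry a long variable arm and are longer than most others.

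The tables gave no isotype. The description column gives only the gene name and the word tRNA in all 615 lines, and 0 of them name an amino acid, so levels could not be summed by amino acid. The grouping used here is the spliced gene length in the Ensembl 115 annotation of WBcel235, to which all 615 genes were matched by gene identifier, and, for a few genes, the symbol in the RefSeq gene table of the same assembly. No gene is assigned to leucine or serine from its length. No tRNA sequences were used here.

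Counted reads came to 7693320 for wild type and 5537671 for RNAi, and levels are reads per 1000000 counted reads (RPM). A single read stands for 0.130 RPM among wild-type and 0.181 RPM among RNAi reads, and a count of 0 is compatible with up to 3 reads, or 0.390 and 0.542 RPM. Ratios are the RNAi over the wild-type library with exact Clopper-Pearson 95% intervals, which cover counting error only. Ribosomal RNA filled most of both libraries, and 95.1% of genes with 10 or more antisense reads and 94.8% of those with 10 or more sense reads had a log2 ratio above 0 in the RNAi library on the RPM scale.

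Reads on tRNA genes were few and lay on the strand of the tRNA. The 333 members had 2609 sense and 64 antisense reads in the wild-type library, or 339 and 8.32 RPM. They had 10233 sense and 1019 antisense reads in the RNAi library, or 1848 and 184 RPM. Antisense reads were 2.39% of the members' reads in the wild-type library (Wilson 95% interval 1.88 to 3.05) and 9.06% in the RNAi library (8.54 to 9.60). The sense sum was 5.45-fold higher in the RNAi library (5.22 to 5.69) and the antisense sum 22.1-fold higher (17.2 to 28.9). With TMM scaling, which moves every log2 ratio by −1.71, the sums were 1.67-fold and 6.78-fold higher. Of the members, 306 had a wild-type sense read and 328 an RNAi sense read, and 46 and 205 had an antisense read.

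Members held 94.4% and 93.3% of the sense reads of the whole class. Of the other genes, 250 had 1 to 9 reads and 32 had none. The 18 genes with exactly 10 reads had between 4 and 10 sense reads in the RNAi library and 0 to 4 in the wild-type library, and the 25 genes with 9 reads, just outside the rule, had 2 to 8 and 0 to 4. The rule thus divides a continuous range and not separate groups.

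The 6 genes with most sense reads, all 72 nt long, had nearly the same level. F08G5.t3 (chromosome IV, 12416942 to 12417013, minus strand) had 72 wild-type and 197 RNAi reads, which is 9.36 and 35.6 RPM. K02E11.t1 (V, 14231364 to 14231435, plus) had 53 and 195, Y4C6B.t1 (IV, 5334712 to 5334783, plus) 55 and 189, and H35N09.t2 (X, 8608834 to 8608905, minus) 53 and 180. H08J11.t1 (X, 9090830 to 9090901, plus), inside the gene of the apical junction protein AJM-1, had 60 and 178, and T03E6.t1 (V, 16592237 to 16592308, minus) had 60 and 171. These 6 genes led in both libraries, and the next gene, C06G1.t4, had 22 and 116. Together they held 13.5% and 10.8% of the members' sense reads, 353 and 1110, a ratio of 4.37 (3.87 to 4.94). They had 1 and 7 antisense reads.

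The median member had 4 wild-type and 16 RNAi sense reads, which is 0.520 and 2.89 RPM. After the 6 leaders the wild-type order went on with Y53C10A.t2 at 33 reads, C06G1.t2 at 28, Y105C5B.t1 at 27, and F22F1.t9, F52E10.t2 and F52H2.t1 at 25 each. In the RNAi library C06G1.t4 was followed by F52H2.t1 and Y54G2A.t3 with 108 each and F38G1.t2 with 103, level with T14F9.t1 and W06G6.t2. All of these are 72 nt long. Across the 333 members the sense reads of the libraries had a Spearman correlation of 0.78, over genes that share reads with their copies and are not independent.

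**Figure D1:**
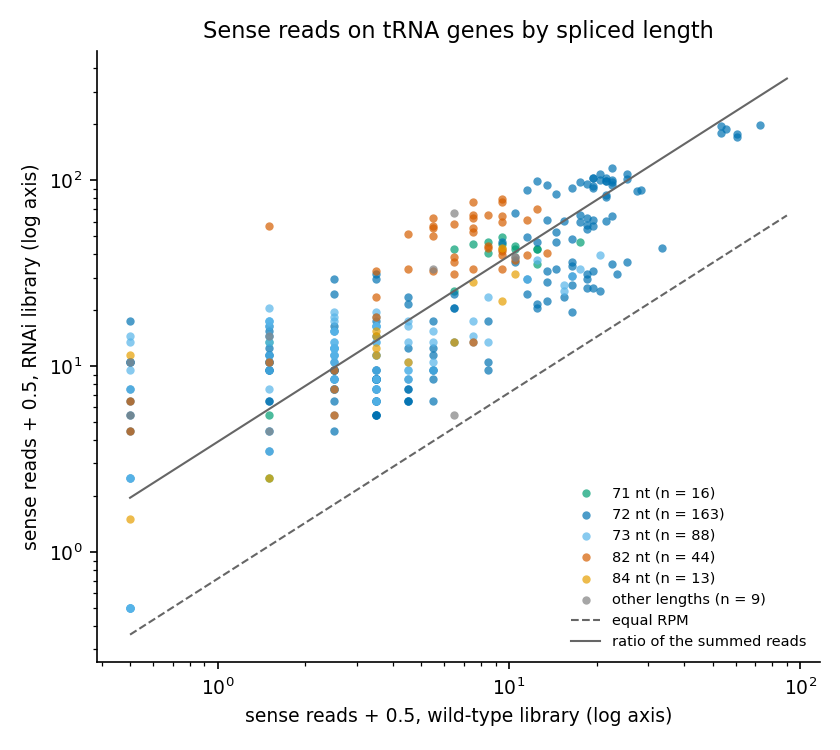
Sense reads plus 0.5 per tRNA gene in the wild-type library (x, log axis) and the RNAi library (y, log axis), 1 point per member, coloured by spliced length. The dashed line marks equal RPM and the solid line the 5.45-fold ratio of the summed reads; the 6 leading genes of 72 nt stand at the upper right, and most 82 nt genes lie above the solid line.

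Single genes were compared by a size rule, which asks for 10 RPM or more on the side that is higher, a 4-fold difference or more, and a counting interval that lies past 2-fold throughout. Of 285 members with 10 or more sense reads, 55 met it as higher in the RNAi library. No member could meet it as lower, since that takes 76.9 wild-type reads and the highest member had 72. Of all 7591 genes with as many sense reads, 7.54% were higher and 0.263% lower. The level minimum, 55.4 reads in the RNAi library, kept out most members, and 55 of the 58 that reached it met the rule. Of all 1803 genes that reached the level minimum, 31.7% met the rule as higher. Of the 285, 95 had 10 or more sense reads in the wild-type library alone, and the others reached the minimum with RNAi reads. The counting interval lay wholly above equal RPM for 248 of the 285 and included it for 37. Intervals were not counted in this way over all genes. A log2 ratio above 0 was found for all 285 members and for 94.85% of the 7591 genes, so most of the tables shared this direction. The members' median log2 sense ratio was 2.44, against 1.53 over the 7591 genes. With TMM scaling 4 members met the rule as higher, against 0.606% of the 7591 genes. As lower, 0.566% of those genes met it, and again no member could, since the level minimum stayed in RPM. On the TMM scale 56 of the 285 had a ratio below 1. The members' median log2 sense ratio was then 0.734, against −0.177 over the 7591 genes.

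Among the 5 lengths with 13 or more members, the 82 nt genes had the largest sense ratio. The 44 members of this length had 276 and 1860 sense reads, or 35.9 and 336 RPM, a ratio of 9.36 (8.25 to 10.7). The 163 members of 72 nt had 1808 and 6270, or 235 and 1132 RPM, a ratio of 4.82 (4.57 to 5.08). The ratio of these ratios was 1.94 (conditional 95% interval 1.69 to 2.24), a quantity that no scaling of the libraries changes. The 88 members of 73 nt had 299 and 1114, which is 5.18-fold (4.55 to 5.90). The 16 members of 71 nt were at 6.06 (5.0 to 7.40) and the 13 of 84 nt at 5.10 (3.8 to 6.94). Against the 72 nt genes the ratio of ratios was 1.07 for 73 nt (0.935 to 1.24) and 1.06 for 84 nt (0.785 to 1.45), so these intervals include 1, and 1.26 for 71 nt (1.03 to 1.55).

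The excess of the 82 nt genes was spread over the genes of that length. Their median log2 sense ratio was 3.17 over 40 genes with 10 or more sense reads, with quartiles of 2.72 and 3.56, against 2.24 over 143 genes of 72 nt, with quartiles of 1.57 and 2.78. Of the 5 members whose interval lay farthest from equal RPM, 4 were of 82 nt and T14B4.t1 of 83 nt. C27A12.t1 (I, 6051155 to 6051236, minus) had 1 and 56 reads, 77.8-fold apart (13.4 to 3127). F49C5.t3 (II, 12541930 to 12542011, minus) had 5 and 62, a ratio of 17.2 (7.0 to 54.9), and C04E7.t1 (X, 353255 to 353336, minus) had 7 and 76, a ratio of 15.1 (6.98 to 38.8). T14B4.t1 (II, 6721766 to 6721848, plus) had 6 and 66, 15.3-fold apart (6.66 to 43.1), and F08F1.t1 had 4 and 51. The first 4 of these were the genes that met the size rule with TMM scaling. By length 14 of 40 measured genes of 82 nt and 40 of 143 of 72 nt met the rule, and 0 of 70 of 73 nt, where the highest level was 7.04 RPM and so under the minimum. Over all genes the share was 7.54% by RPM and 0.606% with TMM scaling. Copies of 1 tRNA share reads, so the genes of a length are not separate measurements.

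**Figure D2:**
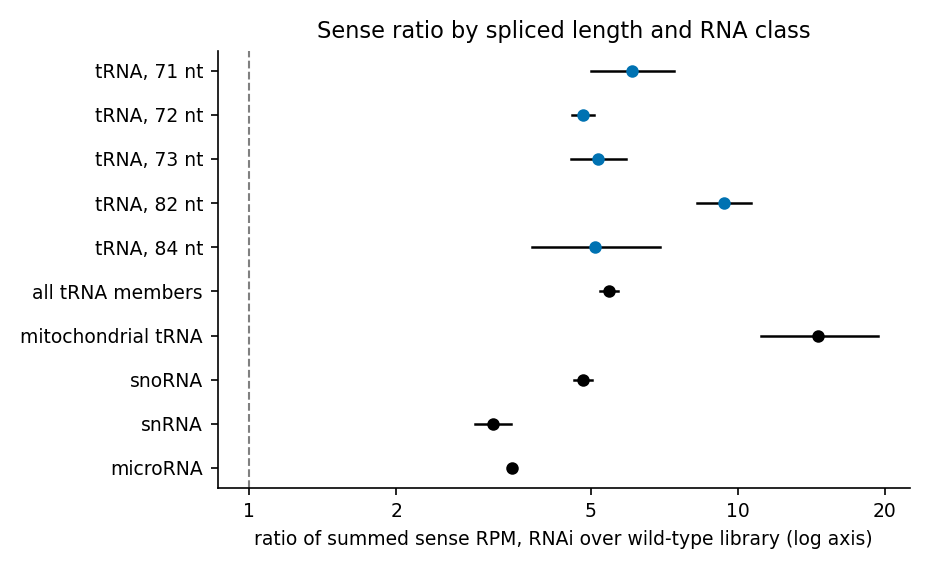
Ratio of summed sense RPM, RNAi over wild-type library (x, log axis), for tRNA members by spliced length, all members, mitochondrial tRNAs and 3 other RNA classes; bars are 95% counting intervals and the dashed line marks equal RPM. The 82 nt genes (9.36) and the mitochondrial tRNAs (14.6) lie to the right of all other sets drawn.

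Genes of 72 nt were not uniform either. The RefSeq table names 14 tRNA genes with a genetic symbol, and these families were looked at after the counts had been seen. The 5 rte genes, for which it gives no amino acid, had 96 and 162 sense reads, a ratio of 2.34 (1.81 to 3.05). Each was higher in RPM in the RNAi library, from rte-2 with 33 and 43 reads to rte-3 with 16 and 36. rte-1 had 16 and 30, rte-4 19 and 32, and rte-5 12 and 21. The other 158 members of 72 nt had a ratio of 4.96 (4.70 to 5.23), and the rte ratio was 0.473 of theirs (0.363 to 0.619). The rte genes had 0 antisense reads in either library. With TMM scaling their sense ratio was 0.719 (0.555 to 0.935), so the direction depends on the scaling.

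The other 9 genes with a symbol had few sense reads. They are 7 sup genes, loci known for amber suppressor mutations in tryptophan tRNA genes, and the related genes rtw-5 and rtw-6. No isotype was given, so whether they make up all tryptophan tRNA genes could not be told. Together they had 1 wild-type and 26 RNAi sense reads, a ratio of 36.1 (5.93 to 1481) that rests on 1 wild-type read. Their antisense reads were 5 and 96, so antisense exceeded sense in both libraries. Only rtw-5 (K06G5.t1) and sup-29 (Y37E11AL.t1) reached 10 reads and are members. rtw-5 (X, 14228920 to 14228991, minus) had 1 and 6 sense and 3 and 56 antisense reads. sup-29 had 0 and 4 sense and 1 and 7 antisense reads. Without rtw-5 the other 8 had 0 and 20 sense and 2 and 40 antisense reads. sup-5 and sup-7 had 3 sense and 4 antisense reads each, all in the RNAi library.

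Of 25 clones with 3 or more members, 13 held members of a single length, and in 9 of these the RNAi sense reads of the genes lay within 2-fold of each other. Y105C5B, all of 72 nt, went the other way, with 1 to 27 wild-type and 9 to 88 RNAi sense reads, as did Y7A5A, all of 82 nt, with 3 to 11 and 18 to 61. In W06G6 on chromosome V, 3 genes within 8260 bp had 17 to 21 wild-type and 97 to 103 RNAi sense reads, a ratio of 7.29 (5.47 to 9.85). In Y54G2A on chromosome IV, 5 genes had 10 to 21 and 66 to 108, a ratio of 6.92 (5.50 to 8.77). In F52E10 on the X chromosome, 5 genes had 12 to 25 and 19 to 36, a ratio of 1.93 (1.47 to 2.54), and in Y53C10A on chromosome I, 3 genes including rte-2 had 16 to 33 and 25 to 43, a ratio of 1.91 (1.39 to 2.65). The wild-type ranges of these clusters overlap, whereas their RNAi ranges do not overlap between the first pair and the last. In H08J11, H08J11.t1 with 60 and 178 reads stood above its 4 neighbours within 1002 bp, which had 12 to 22 and 46 to 64. With TMM scaling F52E10 and Y53C10A were lower in the RNAi library, at 0.592 (0.451 to 0.779) and 0.587 (0.426 to 0.812), while Y54G2A and W06G6 stayed higher, at 2.12 and 2.24. These clusters were chosen after their values had been seen.

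**Figure D3:**
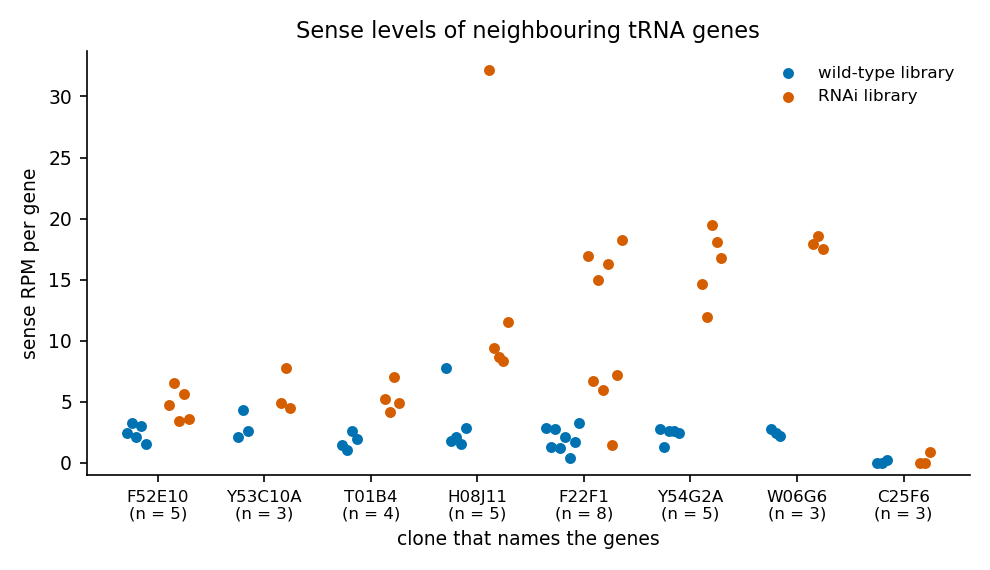
Sense RPM of each member (y) in 8 groups of neighbouring tRNA genes (x, named by clone), with the wild-type library in blue and the RNAi library in orange, 1 point per gene. Y54G2A and W06G6 reach 11.9 RPM or more in every gene of the RNAi library, whereas F52E10 and Y53C10A stay below 8, and H08J11.t1 stands apart from its neighbours at 32.1.

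In the RNAi library 200 members had both sense and antisense reads. There, 0 of the 10 genes with most antisense reads were among the 10 with most sense reads. Unrelated lists of 10 from 333 members would rarely share a gene, so this count tells little. Of the 333 members 126 had no antisense read, and 29 had more antisense than sense reads in the RNAi library. By length the antisense share in the RNAi library was 22.5% (18 to 27.8) for genes of 84 nt, 21.8% (19.7 to 24.0) for 73 nt, 6.33% (5.78 to 6.94) for 72 nt, 5.70% (4.10 to 7.85) for 71 nt and 3.33% (2.61 to 4.23) for 82 nt. In the wild-type library it was 6.85% (4.57 to 10.2) for 73 nt, 2.82% (1.43 to 5.46) for 82 nt and 1.36% (0.926 to 2.01) for 72 nt, so the last pair stood in the other order, with intervals that overlap. The 71 nt and 84 nt genes had 1 wild-type antisense read each. These shares depend on the sense reads and on a few genes. The median RNAi antisense count was 1 for 73 nt and for 72 nt genes, beside median sense counts of 12 and 20. It was 5 for 84 nt genes. Of the 310 RNAi antisense reads of 73 nt genes, W03C9.t1 had 49 and the C25F6 genes 59. The intervals treat reads as separate and do not cover such differences between genes.

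The gene with most antisense reads was Y40A1A.5 (X, 1993449 to 1993562, plus), of 114 nt, which the tables class as tRNA and the current annotation as other noncoding RNA. It had 7 wild-type and 105 RNAi antisense reads, which is 0.910 and 19.0 RPM and 20.8-fold (9.77 to 53.1). Its sense reads were 5 and 33. rtw-5 had a ratio of 25.9 (8.43 to 130). W03C9.t1 (II, 11959375 to 11959447, plus) had 1 and 49 antisense reads, 68.1-fold apart (11.7 to 2743), and 1 and 4 sense reads, and K02A4.t2 (X, 12890285 to 12890356, minus) had 3 and 26. In all 4 genes the antisense count was the higher of the strands in the RNAi library. Of 28 members with 10 or more antisense reads, 2 met the size rule, Y40A1A.5 and rtw-5, against 18.6% of 5751 genes for the higher and 2.63% for the lower direction. The level minimum decides this count, since only these 2 genes reached it, and with TMM scaling the count was again 2, against 12.3% higher and 2.75% lower over the 5751 genes. The median log2 antisense ratio of the 28 was 4.27, against 3.58 over the 5751 genes. None of the 28 had more than 7 wild-type antisense reads, so each was measured only through the RNAi library, and its direction follows from the minimum of 10 reads.

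Several genes had antisense reads with almost no sense reads. In C25F6, 3 genes of 73 nt within 707 bp of the X chromosome had like antisense counts. C25F6.t1 had 2 and 19, C25F6.t2 1 and 18, and C25F6.t3 0 and 22, at least 10.2-fold higher against a floor of 3 reads. Their sense reads were 0 and 0 for the first pair and 2 and 5 for C25F6.t3. T28F2.t1 (I, 3638852 to 3638924, minus) had 1 and 21 antisense and no sense reads. F27E11.t1 had 4 and 20, and C02F12.t1 0 and 16, at least 7.41-fold higher. Together 5 members had no sense read in either library, with 5 and 88 antisense reads. Y97E10C.t1 had both, with 3 and 31 sense and 1 and 20 antisense reads.

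**Figure D4:**
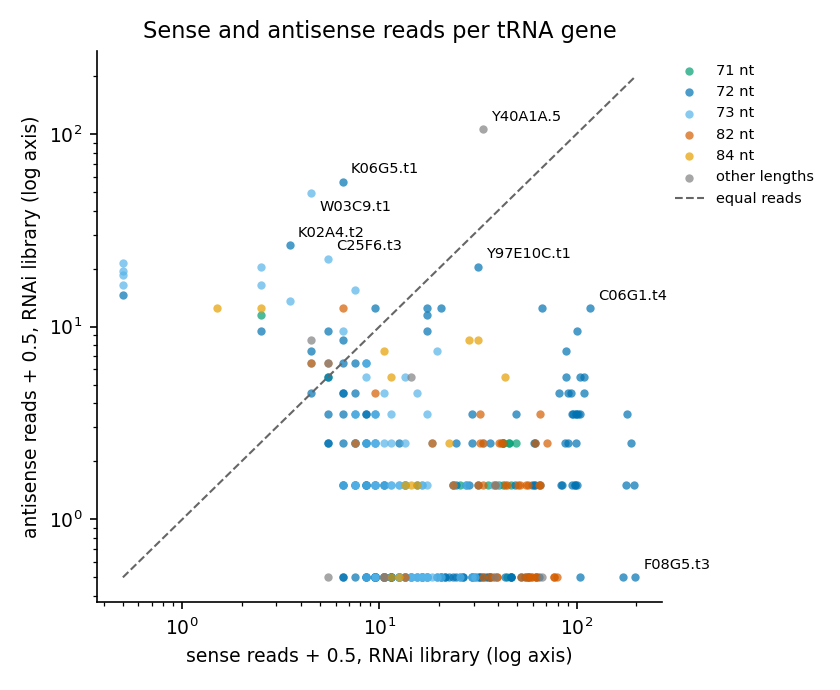
Sense (x) and antisense (y) reads plus 0.5 per tRNA gene in the RNAi library, both on log axes, coloured by spliced length, with the dashed line at equal reads. The 29 genes above the line have few sense reads, except Y40A1A.5 with 33, and the genes with most sense reads lie at the lower right.

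Most members overlap a second entry of the tables on the other strand. For 209 of the 333 (62.8%) the annotation holds a noncoding RNA gene on the opposite strand, with a median length of 92 bp, and in 202 it spans the whole tRNA. A read from the tRNA strand is sense on the tRNA and antisense on such an entry. These 208 noncoding RNAs had 2089 wild-type and 7833 RNAi antisense reads, beside 1802 and 6602 sense reads on the 209 tRNAs. T03E6.t1 had 60 and 171 sense reads and its partner T03E6.13 had 69 and 161 antisense reads. H08J11.t1 had 60 and 178, and H08J11.11 had 59 and 195. Of the 144 pairs with 10 or more reads on both in the RNAi library, 139 were within 2-fold of each other, and over the 209 pairs the Spearman correlation was 0.80. In F56F4.t2 the partner had more, 50 and 355 against 0 and 14.

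The counts therefore place over 50% of the reads from the strand of these 209 tRNAs on the partner entries, 53.7% in the wild-type and 54.4% in the RNAi library. The tables hold no read positions, so the reads cannot be assigned to either entry. With the partners' reads added, the sense sum of the members was 5.34-fold higher in the RNAi library (5.17 to 5.52). The other strand had fewer: the partners had 44 and 955 sense reads beside 28 and 478 antisense reads on the tRNAs. W03C9.11 had 2 and 66 sense reads opposite W03C9.t1, K02A4.4 had 1 and 42 opposite K02A4.t2, and B0285.16 had 4 and 127 opposite B0285.t1, which had 0 and 7. With these reads the antisense sum was 25.4-fold higher (20.9 to 31.1). rtw-5, Y40A1A.5 and the C25F6 genes have no such partner. K02E11.t1 also has none, and its 195 sense reads in the RNAi library lay within the 171 to 197 of the other leading genes. Copies of 1 tRNA share reads, so this match does not tell whether partner entries take reads from the tRNAs.

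**Figure D5:**
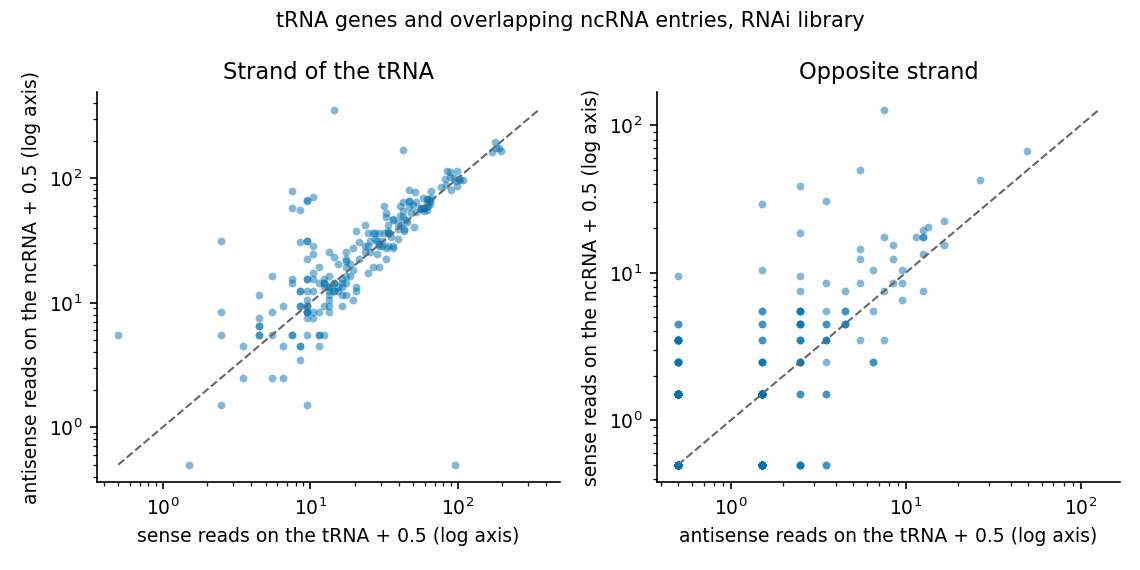
Reads plus 0.5 on 209 tRNA genes (x) and on the overlapping noncoding RNA entries of the opposite strand (y) in the RNAi library, both on log axes, with the dashed line at equal reads. On the left, for the strand of the tRNA, most points follow the line up to F08G5.t3 at 197 and 164; on the right, for the opposite strand, counts are lower and B0285.16 with 127 lies above it.

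By chromosome the sense ratios had overlapping intervals. The X chromosome held 158 of the members and 279 of the class, and its sense ratio was 5.33 (5.01 to 5.67). The other chromosomes ranged from 5.25 for III (4.50 to 6.14) to 6.06 for II (5.17 to 7.15). The share of genes that reached 10 reads ran from 35.9% on V to 66.2% on IV. Of the members, 136 lay in or across a protein-coding gene, 130 of them without touching an exon. The 90 on the same strand as that gene had a sense ratio of 5.52 (5.11 to 5.97), the 47 on the opposite strand 6.66 (5.90 to 7.54) and the 197 outside such genes 5.15 (4.86 to 5.45). The lengths of these sets differ, and within a length, a comparison added after seeing the data, the intervals overlapped. Among 72 nt genes the ratio was 5.32 (4.48 to 6.35) for 22 on the opposite strand and 4.56 (4.26 to 4.89) for 102 outside. Among 82 nt genes it was 10.5 (8.07 to 13.8) for 8 and 8.79 (7.37 to 10.5) for 24. The order was the other way among 73 nt genes, with 4.88 (3.40 to 7.16) for 10 and 5.65 (4.73 to 6.77) for 50. The 21 members with an intron had 77 and 213 sense reads, a ratio of 3.84 (2.95 to 5.06).

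Other small structural RNAs of the nucleus and the tRNAs of mitochondria were compared in sum. The sense ratio of the members was 1.13 times that of small nucleolar RNAs (1.07 to 1.2), 1.72 times that of spliceosomal small nuclear RNAs (1.57 to 1.90) and 1.58 times that of microRNAs (1.51 to 1.655). Small nucleolar RNAs had a larger antisense share than the members, 15.4% and 20.8%, and so had small nuclear RNAs, 6.54% and 17.9%. MicroRNAs had a smaller share, 0.106% and 0.462%. The 22 mitochondrial tRNAs, which the tables place in another class, had 59 and 619 sense reads, a ratio of 14.6 (11.2 to 19.4), or 2.68 times that of the nuclear members (2.04 to 3.57). Nuclear members outnumbered them in sense reads 44.2-fold among wild-type reads and 16.5-fold among RNAi reads. Other mitochondrial genes had lower sense ratios, 2.80 (2.67 to 2.94) for ribosomal RNA and 4.38 (3.72 to 5.18) for mRNA.

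Genes that charge or process tRNAs, a list chosen with earlier results of these data known, had antisense ratios near those of all genes. Sense reads of the 32 aminoacyl-tRNA synthetase genes reached 10 in 29, with a median log2 ratio of 1.63. Of these 29, 3 met the size rule as higher, against 7.54% over all genes. As lower none could, since none had more than 60 wild-type sense reads. Of the 32, 23 had 10 or more antisense reads and 3 met the size rule as higher, against 18.6% over all genes. As lower, 2.63% of all genes met it, and none of the 23 could, with 16 wild-type antisense reads at most. The median log2 antisense ratio of the 23 was 3.58, as over all genes. cars-1, the cysteine enzyme, had 3 and 86 antisense reads, 39.8-fold apart (13.2 to 197). tars-1, the threonine enzyme, had 10 and 94, and aars-2, an alanine enzyme, had 16 and 59. Of 7 processing genes 5 were measured and 1 met the rule, dcr-1, the Dicer nuclease, with 6 and 57, and their median was 3.62. hoe-1, which encodes the RNase Z that trims the 3′ end of tRNAs, had 1 and 8, and rtcb-1, the tRNA ligase, had 0 and 2.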

How the data were processed

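Per the series' design text, alignment by the authors was to the C. elegans transcriptome of WormBase release WS243, with Bowtie2 in its default settings, and small RNAs were counted by gene. Of Bowtie2 no version is recorded (not given in the sources used here). The authors deposited raw counts per transcript, sense and antisense, for 2 libraries, 1 per group. In those settings a read with several equally good matches is placed at 1 of them, so the division of reads among near-identical tRNA copies and overlapping entries is uncertain. Columns were taken by position. Incomplete lines, 2 for the wild-type and 3 for the RNAi library, held 2 and 9 reads and were left out.

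RPM were computed over the sense and antisense reads of all 56374 complete lines, and isoforms were added up per gene for the values over all genes. Log2 ratios had 0.5 added to each count. TMM factors came from edgeR 4.0.16 in R 4.3.3, over both strands of all lines, and other values from Python 3.11.15 with scipy 1.17.1. Annotation came from Ensembl 115 (WBcel235) and the RefSeq gene table of the same assembly.

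The members and lists were chosen with earlier results of these data known. Genes named in the text are the 10 with most sense or antisense reads per library, the 5 per direction whose interval lay farthest from equal RPM (none lay wholly below it), and genes named as chosen later. The antisense leaders of the wild-type library have 7 reads or fewer and are given only where they recur. Alternatives were other scalings, read minimums of 1 and 50, and members left out.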

Additional observations from a re-analysis of the deposited data

How the results depend on the processing

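The 5.45-fold sense sum was 1.67 with TMM, 1.66 with median-of-ratios, 1.58 with microRNA sense reads as scale, 6.59 with reads outside ribosomal RNA and 5.83 with 50 or more reads. The 22.1-fold antisense sum was 6.78, 6.74 and 6.41 with TMM, median-of-ratios and microRNA scale. Under these scalings 4, 4 and 3 of the 285 measured members met the size rule for sense as higher, against 55 by RPM. Over all 7591 genes the shares were 0.606%, 0.580% and 0.514%, against 7.54% by RPM. For antisense 2 of 28 members met it under each scaling, against 12.3%, 12.2% and 11.6% of 5751 genes. Of these 2, 1 was left without Y40A1A.5, both as the highest member and as a gene of another biotype. The sense share in the RNAi library was 89.3% with 1 or more reads, against 90.9%. All scalings tried kept both sums above 1, and the 1.94 between 82 nt and 72 nt genes ranged from 1.85 to 1.99 over 6 alternatives, chosen after seeing the data. Levels by amino acid and by groups of identical sequence could not be had, since neither amino acids nor sequences were at hand, and leaving out mitochondrial genes changed nothing, as no member is mitochondrial. No paired analysis was possible because each group held 1 library. At 0.130 RPM per read the wild-type antisense counts of single genes, 7 at most, limit their ratios.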
